A study of Homo sapiens with 6 samples.

Results

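The tight junction genes described here are 9 genes of human MCF10A cells. They encode 6 claudins (CLDN1, CLDN4, CLDN7, CLDN8, CLDN12 and CLDN23), occludin (OCLN), junctional adhesion molecule A (F11R) and the scaffold protein ZO-1 (TJP1). They were taken by symbol from the 19198 genes of a table of normalized counts. The list was chosen with earlier results of these data known. All 9 genes were listed there, and all 9 passed the filter of a mean of at least 10 normalized counts that left 16988 genes for testing. A normalized count is the number of reads on a gene divided by a size factor of the sample, and it is not divided by gene length.

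MCF10A is a non-tumorigenic, immortalized line of mammary epithelial cells, and as a single established line it stands for one genetic background. RNA-Seq was performed on 6 samples. The control group of 3 samples was grown with 5% horse serum, 10 µg/ml insulin, 20 ng/ml EGF, 100 ng/ml cholera toxin and 0.5 µg/ml hydrocortisone. The growth factor-depleted group of 3 samples was grown with the same serum and without insulin, EGF, cholera toxin or hydrocortisone, so the effect of each withdrawn factor cannot be told apart. In both groups cells were collected at the same nominal confluence. The time without growth factors is not given for these samples, and nothing in the labels ties the 3 samples of a group to separate cultures, so p-values measure the spread between these samples, which may be technical. The comparison addresses whether junction genes change when these cells lose their cobblestone shape after growth factor depletion.

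Tight junctions seal the space between neighbouring epithelial cells near their apical side and limit which ions and solutes pass between them. Claudins are membrane proteins whose extracellular loops pair across the gap and set the seal or its charge selectivity. Occludin and the junctional adhesion molecules are further membrane components, and ZO proteins on the cytoplasmic side tie the membrane proteins to actin. In the mammary gland these junctions separate the luminal space from the tissue. Loss of such junctions is a known part of epithelial to mesenchymal transition (EMT).

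Claudins share a signature in their first extracellular loop, a tryptophan followed by glycine-leucine-tryptophan and a pair of cysteines. The coding stretches that hold it are shown because they set the measured claudins side by side, the one that passed the test (CLDN8) among 4 that did not. They were read from Gencode v44 transcripts, 5′ to 3′ on the coding strand, and capitals mark the codons of those 6 residues. Each stretch has 105 bases within a single coding exon of hg38: chr3:190322015-190322119 on the minus strand for CLDN1, chr7:73831289-73831393 on the plus strand for CLDN4, chr17:7261852-7261956 on the minus strand for CLDN7, chr21:30215734-30215838 on the minus strand for CLDN8 and chr7:90412773-90412877 on the plus strand for CLDN12.
CLDN1: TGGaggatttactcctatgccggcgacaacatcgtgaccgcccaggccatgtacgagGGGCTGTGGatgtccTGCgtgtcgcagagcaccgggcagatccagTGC
CLDN4: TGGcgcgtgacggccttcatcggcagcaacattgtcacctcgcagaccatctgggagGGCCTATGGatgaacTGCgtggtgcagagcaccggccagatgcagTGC
CLDN7: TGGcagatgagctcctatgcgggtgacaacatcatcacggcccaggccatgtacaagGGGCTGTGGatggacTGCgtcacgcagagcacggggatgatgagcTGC
CLDN8: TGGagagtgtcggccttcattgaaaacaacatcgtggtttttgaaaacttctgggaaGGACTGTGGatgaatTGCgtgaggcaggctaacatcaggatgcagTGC
CLDN12: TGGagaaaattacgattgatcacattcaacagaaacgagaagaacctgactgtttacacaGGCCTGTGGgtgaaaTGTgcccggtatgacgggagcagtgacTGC

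The signature lies at codons 30 to 64 in CLDN1, CLDN4, CLDN7 and CLDN8 and at codons 33 to 67 in CLDN12, where the spacing between the marked residues is different. Among the 4 claudins with the same spacing, CLDN1 and CLDN7 were the closest pair, with 79.0% of the bases identical. CLDN8 was closest to CLDN4, with 69.5% identical bases, and shared 57.1% with CLDN1 and 51.4% with CLDN7. The protein lengths read from these transcripts were 211 residues for CLDN1 and CLDN7, 209 for CLDN4, 225 for CLDN8 and 244 for CLDN12. CLDN4, CLDN8, CLDN12 and CLDN23 have 1 coding exon each, whereas CLDN1 and CLDN7 have 4. No window of 100 bases, the read length, in CLDN1, CLDN4, CLDN8 or CLDN23 was found in a transcript of another gene.

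Of the 9 tight junction genes, 1 fell and 0 rose in growth factor-depleted cells. The gene that fell was CLDN8. Calls required a change of at least 2-fold and, by limma with Benjamini-Hochberg adjustment over all genes tested, an adjusted p under 0.05. Over all genes tested, 1.97% were called lower, 4.36% were called higher and 6.33% were called in either direction. On the log2 scale 6 of the 9 fold changes were negative and 3 were positive, with a median of -0.60, against -0.03 for all genes tested. An unadjusted p under 0.05 was reached by 2 members, CLDN8 and CLDN12. The samples of the groups did not overlap for 3 members: every depleted sample lay below every control sample for CLDN8 and CLDN12, and above for TJP1. Over all genes tested, 12.1% were below and 13.5% were above in this sense.

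The samples labelled as replicate 1 stood apart for these genes. Depleted replicate 1 was the lowest depleted sample for 8 of the 9 members, whereas over all genes tested it was the lowest depleted sample for 35.5%. Its median level over the members was 26.2% of the control mean, against 85.9% in depleted replicate 2 and 93.7% in depleted replicate 3. Over all genes tested these medians were 91.5%, 91.1% and 90.2%. Control replicate 1 was the highest control sample for 7 of the 9 members and for 26.8% of all genes tested. The same depleted sample had 609.6 normalized counts of the adherens junction gene CDH1, 152.9 of the epithelial adhesion gene EPCAM and 562.0 of the basal keratin gene KRT5, where the other depleted samples had at least 13118.3, 2281.1 and 10908.3. Without it the median log2 fold change of the members was 0.19. These samples were singled out after the values were seen, and their part in the results was not tested.

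**Figure D1:**
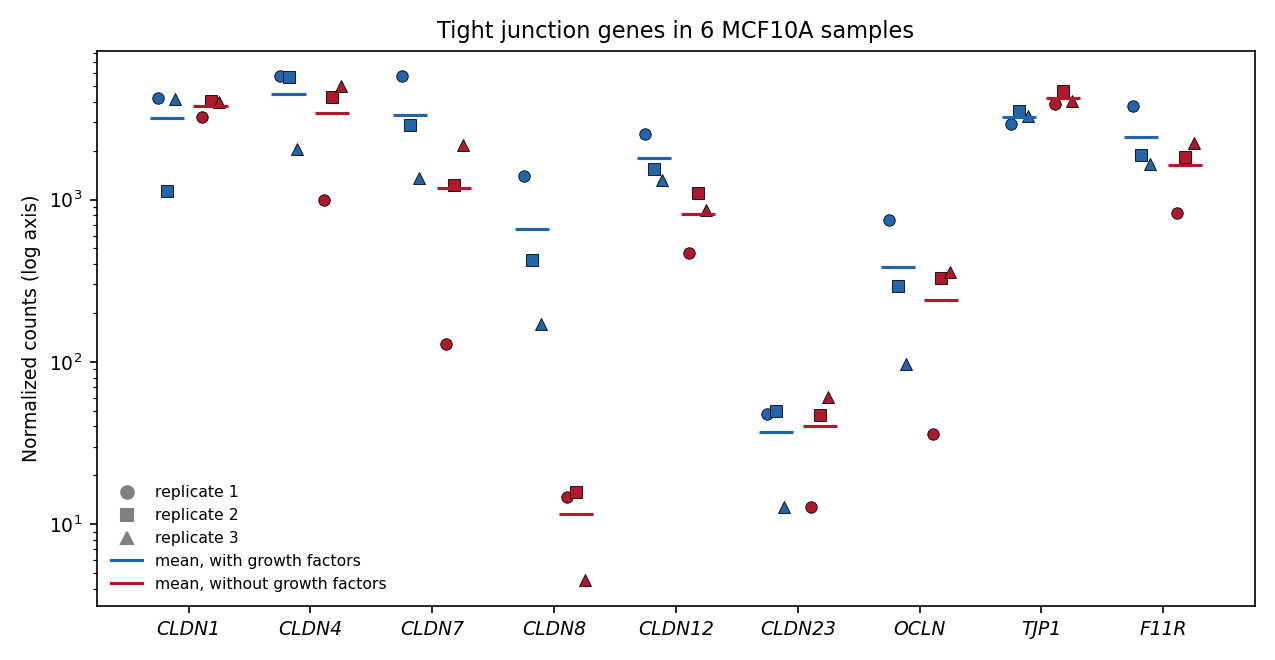
Normalized counts (log axis) of the 9 tight junction genes in each of the 6 samples, with circles, squares and triangles for replicates 1, 2 and 3 and a bar at each group mean (blue with growth factors, red without). The 3 depleted samples of CLDN8 lie between 4.5 and 15.7, below all control samples, and the circle of depleted replicate 1 is the lowest red symbol for the other genes.

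Marker genes of other cell types and states were measured beside them, and their part in these results was not tested. In bulk samples fewer cells of a type and less RNA per cell cannot be told apart. All 6 mesenchymal markers examined (VIM, FN1, CDH2, COL1A2, COL3A1 and ZEB1) were called higher, and their summed level was 3806 to 11226 normalized counts in control samples and 114773 to 189327 in depleted samples. The labels describe MCF10A as luminal ductal cells, whereas the study's paper describes them as normal-like basal cells. Of 10 luminal markers, 8 were matched in the table (ELF5 and KIT were not analysed here), and their sum was 9115 to 18676 in control and 18425 to 31713 in depleted samples. KRT8 and KRT18 carried this sum, while 6 of the 8 had negative log2 fold changes, with a median of -0.85, and KRT19 was called lower (-2.31, adjusted p of 0.0196 by limma). The 7 basal markers summed to 64153 to 92692 in control and 51271 to 175005 in depleted samples. Their log2 fold changes were negative for 5 and positive for 2, with a median of -0.50, and 1 was called lower and 0 higher. Markers of endothelium (3 of 3 matched) summed to 100.3 to 1009 in control and 240.0 to 1610 in depleted samples, mostly from PECAM1. Among them CDH5 was called higher, with 8.8, 4.1 and 4.9 normalized counts in control and 25.6, 118.7 and 100.6 in depleted samples (3.37 on the log2 scale, adjusted p of 0.0282 by limma). Markers of leukocytes (2 of 3) summed to 272.5 to 883.6 in control and 86.6 to 656.3 in depleted samples, and the matched adipocyte marker PLIN1 had 24.0 to 57.1 and 7.9 to 13.4. The depth was 7472418 to 28672630 reads on genes per sample, and the shallowest sample was depleted replicate 3, in which 1 read equals 2.24 normalized counts.

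CLDN8 (ENSG00000156284.5, chr21:30214006-30216097, minus strand), a claudin known as a barrier to cations in the kidney tubule, was the member that fell. The 3 control samples had 1387.3, 424.2 and 170.2 normalized counts and the 3 depleted samples had 14.6, 15.7 and 4.5. All depleted values were far below the lowest control value. The depleted values rest on 16, 24 and 2 reads, and the last of them is under the floor of 3 reads that a count of 0 would allow. On average 1.76% of the control mean remained. The log2 fold change was -5.37 with a standard error of 0.80 and an adjusted p of 0.00651 by limma, and its 95% interval ran from -7.19 to -3.54. The call was kept with any 1 of the 6 samples left out, while the estimate moved between a 23.9-fold difference without control replicate 1 and a 68.2-fold difference without control replicate 3. The control samples themselves spanned the range from 170.2 to 1387.3. Over the 6 samples the genes with the pattern most like that of CLDN8, among the 11688 genes whose mean reached 100, were UNC5B with a Pearson r of 0.9945, ZDHHC6 with 0.9943 and SMC6 with 0.9933. These values describe likeness over 6 samples that share the 2 conditions. UNC5B had 3148.1, 1217.4 and 935.5 normalized counts in control and 192.2, 228.8 and 138.6 in depleted samples.

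CLDN12 (ENSG00000157224.14, chr7:90383721-90513402, plus strand), a claudin that lacks the C-terminal motif by which most claudins bind ZO proteins, had separate groups without passing the test. Its control samples held 2520.3, 1536.7 and 1320.2 normalized counts, and its depleted samples 469.5, 1102.8 and 858.6. The mean was 1792 ± 640 (SD, n = 3) in control and 810 ± 319 (SD, n = 3) in depleted cells. The log2 difference was -1.17 with a standard error of 0.40, an adjusted p of 0.135 by limma and a 95% interval from -2.08 to -0.27. The estimate stayed between -1.44 and -0.82 with any sample left out. In the annotation CLDN12 shares exonic bases on the same strand with GTPBP10 and CDK14. Reads there could be assigned to either gene or to none, and the count of CLDN12 is uncertain to that extent. GTPBP10 had 914.9, 858.9 and 721.1 normalized counts in control and 339.6, 487.8 and 366.7 in depleted samples, also without overlap. CDK14 had 3149.4, 2096.2 and 2404.2 in control and 3035.1, 4215.3 and 4116.4 in depleted samples. The part of these genes in the values of CLDN12 was not tested.

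CLDN7 (ENSG00000181885.17, chr17:7259903-7263983, minus strand), a claudin typical of the lateral membrane of epithelia, varied most of the members among depleted samples, with an SD of 2.15 on the log2 scale. The control values were 5771.2, 2881.2 and 1358.5 normalized counts and the depleted values 129.1, 1220.8 and 2180.0. Depleted replicate 3 exceeded control replicate 3, so the groups overlapped. The depleted samples stood at 3.87%, 36.6% and 65.3% of the control mean in the order of their numbers. The log2 difference was -2.01 with a standard error of 0.98, an adjusted p of 0.305 by limma and an interval from -4.24 to 0.22. Without depleted replicate 1 it was -0.79. CLDN7 shares exonic bases with ELP5 on the opposite strand and with a readthrough transcript on the same strand, to which 11.8% of its 100-base windows also belong. The libraries kept strand, but the strand setting of the counting is not given in the sources used here, so reads of CLDN7 and ELP5 may not be told apart where they overlap. ELP5 itself had 185.9 to 414.6 normalized counts in the 6 samples.

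CLDN4 (ENSG00000189143.9, chr7:73799542-73832690, plus strand), a claudin that seals against cations and a receptor for a clostridial enterotoxin, had values of 5758.6, 5660.5 and 2052.1 normalized counts in control and 993.1, 4255.3 and 5024.2 in depleted samples. The groups overlapped, and one sample in each group was low. Depleted minus control, the log2 difference was -0.55 with a standard error of 0.66 and an adjusted p of 0.717 by limma, with an interval from -2.06 to 0.96. It was 0.19 without depleted replicate 1.

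CLDN1 (ENSG00000163347.5, chr3:190305707-190322446, minus strand), the claudin needed for the epidermal barrier, was spread more in control than in depleted cells. The control samples held 4229.7, 1130.1 and 4157.3 normalized counts and the depleted samples 3213.6, 4060.5 and 4009.0. Here the single low sample was control replicate 2, and the depleted samples lay within the range of the controls. On the log2 scale the difference was 0.47 with a standard error of 0.51, an adjusted p of 0.685 by limma and an interval from -0.69 to 1.62. It was -0.17 without control replicate 2. For CLDN1 and CLDN4 the intervals leave room for a change of 2-fold, so these data do not show that the genes were unaffected.

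CLDN23 (ENSG00000253958.1, chr8:8701937-8704096, plus strand), a claudin of differentiated epithelia, was the member with the fewest reads. Its values were 47.6, 49.8 and 12.8 normalized counts in control and 12.8, 47.2 and 60.4 in depleted samples, from 13 to 85 reads per sample. Both groups covered nearly the same range. On the log2 scale the difference was 0.09 with a standard error of 0.77 and an adjusted p of 0.973 by limma, with an interval from -1.68 to 1.85, and its sign changed with the scaling and with single samples left out.

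**Figure D2:**
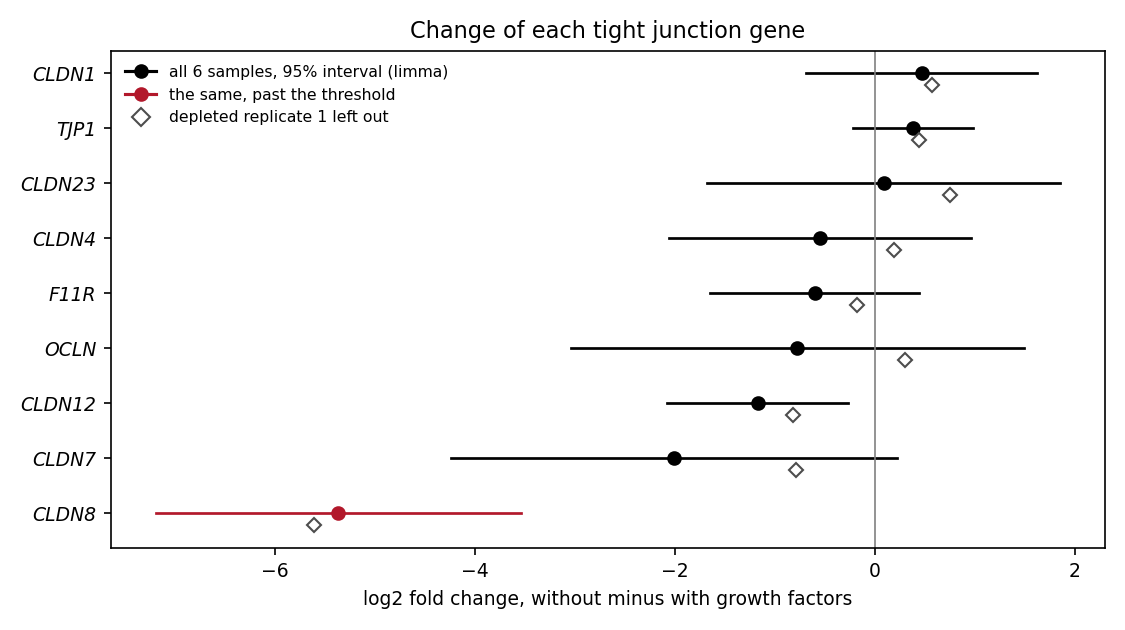
The log2 fold change of each tight junction gene, depleted minus control, with its 95% interval from limma over 6 samples (filled circles, red where past the threshold) and the estimate without depleted replicate 1 (open diamonds). The interval of CLDN8 ends at -3.54, and leaving out that sample brings CLDN4 to 0.19 and OCLN to 0.30.

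To compare claudins with each other, normalized counts were divided by the length of the gene's main transcript in kilobases. In control cells the mean levels per kilobase were 2649 for CLDN4, 2164 for CLDN7, 921 for CLDN1, 507 for CLDN12, 316 for CLDN8 and 17.0 for CLDN23. The ranges of neighbours in this order overlapped except between CLDN8, with at least 81.4, and CLDN23, with at most 23.1. In depleted cells the order was CLDN4 with 2020, CLDN1 with 1091, CLDN7 with 763, CLDN12 with 229, CLDN23 with 18.6 and CLDN8 with 5.55, with CLDN8 last. Here CLDN12, with at least 133, and CLDN23, with at most 27.9, were the only neighbours whose ranges were apart, and the range of CLDN8, from 2.14 to 7.52, overlapped that of CLDN23. The order of the claudins depended on the length used, also for CLDN8 in control cells. With the merged length of all annotated exons, an alternative added after seeing the data, control levels were 1339 for CLDN7, 956 for CLDN4, 874 for CLDN1, 316 for CLDN8, 267 for CLDN12 and 17.0 for CLDN23. Depleted levels were then 1037 for CLDN1, 729 for CLDN4, 472 for CLDN7, 121 for CLDN12, 18.6 for CLDN23 and 5.55 for CLDN8, so CLDN8 was again last. Per kilobase of the main transcript the remaining members had means of 525 for F11R, 448 for TJP1 and 61.7 for OCLN in control cells and of 350 for F11R, 585 for TJP1 and 38.9 for OCLN in depleted cells.

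As a share of the 6 claudins per kilobase within each sample, CLDN8 made up 6.79%, 3.27% and 2.16% in control and 0.401%, 0.156% and 0.0368% in depleted samples. The groups did not overlap, and the two-sided exact permutation test gave p = 0.1, the smallest that 3 against 3 samples allow. CLDN4 held 40.3% ± 11.9 (SD, n = 3) in control and 45.5% ± 10.4 in depleted cells. The share of CLDN7 was 30.6% ± 7.46 in control and 15.2% ± 9.82 in depleted cells (SD, n = 3, exact permutation p = 0.2), and that of CLDN1 was 16.7% ± 13.9 and 32.6% ± 18.1 (exact permutation p = 0.4). None of these differences could pass 0.05 in this design. In depleted replicate 1 CLDN1 alone accounted for 53.4% of the claudin level and CLDN7 for 4.79%. The summed level of the 6 claudins was 6574 ± 3021 per kilobase in control and 4128 ± 2120 in depleted cells (SD, n = 3, exact permutation p = 0.4). With the merged exon length the CLDN8 share was 11.5%, 6.48% and 3.37% in control and 0.568%, 0.278% and 0.0667% in depleted samples, again without overlap, and each claudin's mean share differed in the same direction.

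**Figure D3:**
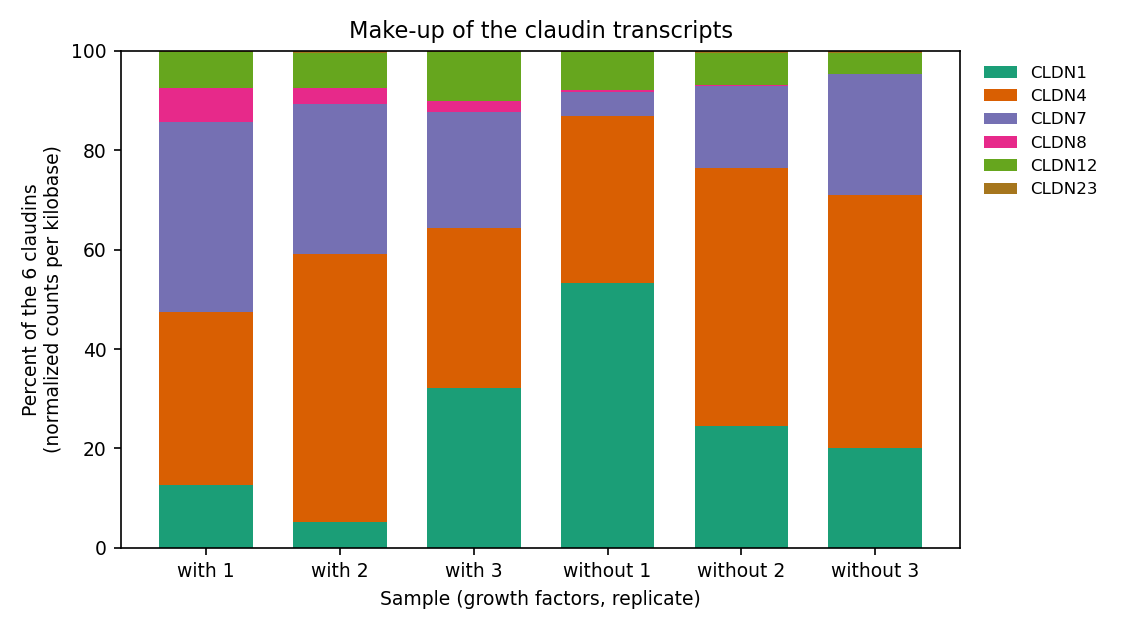
Share of each claudin in the summed level of 6 claudins (normalized counts per kilobase of the main transcript, in percent) for the 6 samples. The CLDN8 share is 2.16% to 6.79% in the control samples and at most 0.401% in the depleted samples, and CLDN1 takes 53.4% in depleted replicate 1.

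Occludin (OCLN, ENSG00000197822.9, chr5:69492292-69558104, plus strand), a membrane protein with 4 transmembrane passes that lines the junction strands, did not pass the test. The control values were 753.2, 295.3 and 96.4 normalized counts and the depleted values 35.7, 327.8 and 357.8. Control replicate 3 and depleted replicate 1 were the low samples, and the remaining depleted samples lay inside the control range. The log2 difference was -0.78 with a standard error of 0.99 and an adjusted p of 0.733 by limma, and the interval from -3.04 to 1.49 was the widest of the members. Without depleted replicate 1 it was 0.30. In the annotation 6.9% of its 100-base windows also occur in the pseudogene OCLNP1, so a part of its reads could map to more than 1 place.

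JAM-A (F11R, ENSG00000158769.16, chr1:160995211-161021343, minus strand), an immunoglobulin type adhesion molecule that helps to place the polarity complex, had values of 3762.2, 1891.1 and 1651.7 normalized counts in control and 831.1, 1820.8 and 2218.1 in depleted samples. The groups overlapped, with one high control sample and one low depleted sample. Depleted minus control, the log2 difference was -0.60 with a standard error of 0.46, an adjusted p of 0.537 by limma and an interval from -1.65 to 0.44. Its range with any sample left out was -0.89 to -0.18. A readthrough transcript shares 38.7% of the 100-base windows of F11R, and its count is uncertain to that extent.

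ZO-1 (TJP1, ENSG00000104067.15, chr15:29699367-29968915, minus strand), the scaffold that binds the tails of claudins and occludin, was the steadiest member. Control samples held 2912.5, 3503.4 and 3257.1 normalized counts and depleted samples 3892.7, 4648.0 and 4071.6. Every depleted sample was above every control sample, also depleted replicate 1, but by little. The mean was 3224 ± 297 (SD, n = 3) in control and 4204 ± 395 (SD, n = 3) in depleted cells. The log2 difference was 0.38 with a standard error of 0.26, an adjusted p of 0.489 by limma and an interval from -0.22 to 0.98, which lies within a 2-fold change. Over the samples of a group its log2 values varied by an SD of 0.13 in control and 0.13 in depleted cells, the smallest of the 9 genes.

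In each sample the other members were also set against TJP1, as the log2 ratio of normalized counts without division by length. For CLDN8 it was -1.07, -3.04 and -4.25 in control and -7.96, -8.12 and -9.54 in depleted samples, without overlap. For CLDN12 it was -0.21, -1.19 and -1.30 against -3.05, -2.07 and -2.24, again without overlap. For OCLN it was -1.95, -3.56 and -5.06 against -6.73, -3.82 and -3.50, with overlap. Set against CDH1 instead, the groups of both CLDN8 and CLDN12 overlapped. CLDN8 over CDH1 was -3.85, -4.95 and -6.24 in control and -5.29, -9.63 and -11.23 in depleted samples. CLDN12 over CDH1 was -2.99, -3.09 and -3.29 against -0.38, -3.58 and -3.93. Of 17 such ratios to TJP1 or CDH1, 3 had groups that did not overlap, the last being TJP1 over CDH1, which was -2.78, -1.91 and -1.99 in control and 2.67, -1.51 and -1.69 in depleted samples. The two-sided exact permutation p was 0.1 for each of these 3, the smallest possible, and 0.567 after Benjamini-Hochberg adjustment over the 17 ratios.

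A list of 51 other tight junction components was examined in the same way, of which 36 were in the table and 33 were tested. Of these, 3 rose, 1 fell and 29 did not pass the test, with 15 positive and 18 negative log2 fold changes and a median of -0.07. The called shares of all genes tested were 4.36% higher and 1.97% lower. Without overlap between groups, 6 were above and 4 were below, where all genes tested gave 13.5% and 12.1%, so the share below was that of the background. The gene that fell was TJP3, which encodes ZO-3, a scaffold of epithelial junctions. Its control samples held 1537.7, 597.6 and 1234.6 normalized counts and its depleted samples 124.5, 184.2 and 194.5, so each depleted sample was below each control sample by at least 3-fold. The log2 fold change was -2.66 with a standard error of 0.41 and an adjusted p of 0.00769 by limma, and the call was kept with any 1 sample left out.

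The genes that rose were JAM2, PARD3B and AMOTL2. JAM2 encodes JAM-B, a junctional adhesion molecule known from endothelium. It had 0, 0 and 1 reads in control samples and 312.1, 36.7 and 29.1 normalized counts in depleted samples (adjusted p of 0.0104 by limma), and no fold is given against so few reads. PARD3B encodes a relative of the polarity protein PAR-3. Its values were 101.5, 41.6 and 125.9 in control and 999.5, 349.5 and 328.7 in depleted samples, a log2 fold change of 2.57 with a standard error of 0.57 and an adjusted p of 0.0356 by limma. AMOTL2, which encodes a motin that binds junction scaffolds and YAP, held 1092.8, 1740.6 and 957.2 normalized counts in control and 2788.9, 3098.7 and 2855.3 in depleted samples. Its log2 fold change was 1.25 with a standard error of 0.30 and an adjusted p of 0.0464 by limma. Groups did not overlap for any of these genes, and JAM2 kept its call with any sample left out. The call of PARD3B was kept only without control replicate 3 and was lost without each of the other samples, where the adjusted p was 0.0763 to 0.0890. That of AMOTL2 was kept without control replicate 2 or 3 and lost without each of the other 4, where the adjusted p was 0.0941 to 0.178.

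Another 4 components had non-overlapping groups and differences of at least 1 on the log2 scale but did not pass the test. The scaffold genes MAGI2 and AMOT and the polarity gene PARD6A were above in depleted cells by 2.08, 1.64 and 1.60, and the scaffold gene MAGI3 was below by -1.05 (adjusted p of 0.135, 0.265, 0.221 and 0.182 by limma). By role, the 14 plaque scaffold genes had 1 rise, 1 fall and a median of 0.14, and the 10 polarity genes had 1 rise and a median of -0.43. The 2 relatives of occludin, MARVELD2 (tricellulin) and MARVELD3, had 114.4 and 34.8 normalized counts in depleted replicate 1 and at least 538.9 and 684.2 in the other depleted samples. The angulins LSR, ILDR1 and ILDR2, which mark the contacts of 3 cells, had differences of -0.03, -1.51 and 0.67 and no call. Of 17 further claudins, 4 were in the table, and CLDN15 alone passed the filter, with a difference of -0.66 and no call. CLDN3, CLDN11 and CLDN16 had at most 13.4, 17.7 and 14.8 normalized counts in any sample.

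**Figure D4:**
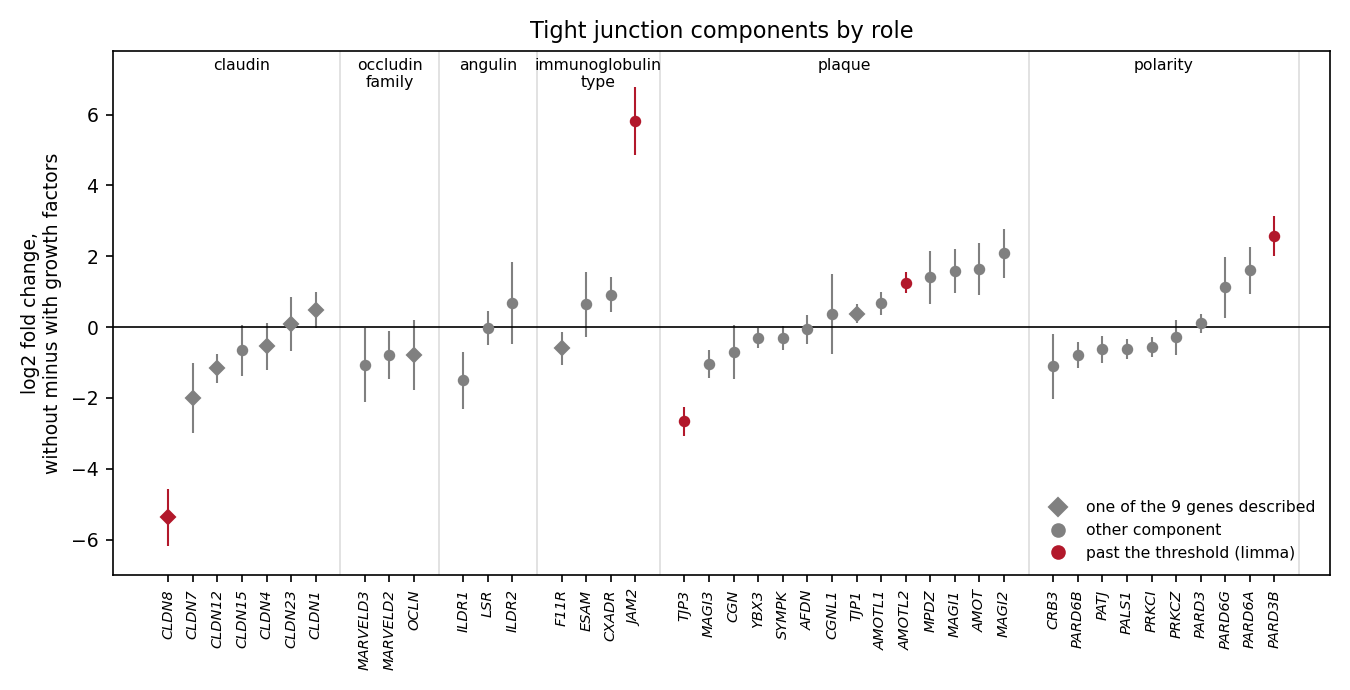
The log2 fold change, depleted minus control, of 41 tested tight junction components by role, with bars of 1 standard error (diamonds for the 9 genes described, circles for 32 others, red where past the threshold by limma). The plotted value of JAM2 depends on the pseudocount, since its control samples hold 0, 0 and 1 reads. The red symbols are CLDN8 and TJP3 below 0 and JAM2, AMOTL2 and PARD3B above 0.

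The genes of the other epithelial contacts were examined beside them. Of 22 adherens junction and desmosome genes, 20 were in the table and 19 were tested, with 1 rise, 2 falls and a median log2 fold change of -0.74, beside 4.36% of all genes tested called higher and 1.97% called lower. Groups did not overlap for 2 genes above and 6 below, where all genes tested gave 13.5% and 12.1%. The adherens gene that rose was NECTIN3, a nectin that starts cell contacts, with 394.8, 241.4 and 191.8 normalized counts in control and 1459.9, 914.0 and 1050.9 in depleted samples (log2 fold change 2.08, standard error 0.36, adjusted p of 0.0118 by limma). Its call was lost without depleted replicate 3, with an adjusted p of 0.0536. The desmosomal cadherins DSG3 and DSG2 fell. DSG3 held 40670.2, 15645.1 and 14515.0 normalized counts in control and 167.5, 1744.1 and 1026.3 in depleted samples (log2 fold change -4.97, standard error 0.82, adjusted p of 0.00965 by limma). DSG2 changed by -1.74 with a standard error of 0.38 and an adjusted p of 0.0307 by limma, and its call was kept only without control replicate 3 and lost without each of the other samples (adjusted p of 0.0805 to 0.117). Among the genes with no call, the groups of DSP, DSC2, NECTIN4 and CTNNB1 were also separate, with differences of -1.63, -2.96, -1.89 and 1.09 and adjusted p of 0.0933, 0.0594, 0.137 and 0.116 by limma. By DESeq2, DSP, DSC2 and CTNNB1 were called (adjusted p of 0.0103, 0.00179 and 0.0119) and NECTIN4 was not (0.0512). After a correction for GC content and transcript length, DSP and DSC2 were called (adjusted p of 0.0364 and 0.0451 by limma). NECTIN1, at -0.74 before this correction, was called after it as well (-1.05, adjusted p of 0.0462 by limma). NECTIN4 and CTNNB1 were not called after it (adjusted p of 0.105 and 0.0783 by limma).

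The median was -0.98 for the 10 desmosome genes and -0.20 for the 9 adherens junction genes, beside -0.60 for the 9 tight junction genes. Without depleted replicate 1 these medians were -0.49, 0.03 and 0.19, while that of all genes tested was -0.04. This sample was the lowest depleted sample for 16 of the 19 adherens junction and desmosome genes and for 21 of the 33 other tight junction components. Leaving it out did not take the calls from CLDN8, TJP3 or DSG3, whose log2 fold changes were then -5.61, -2.46 and -3.97.

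**Figure D5:**
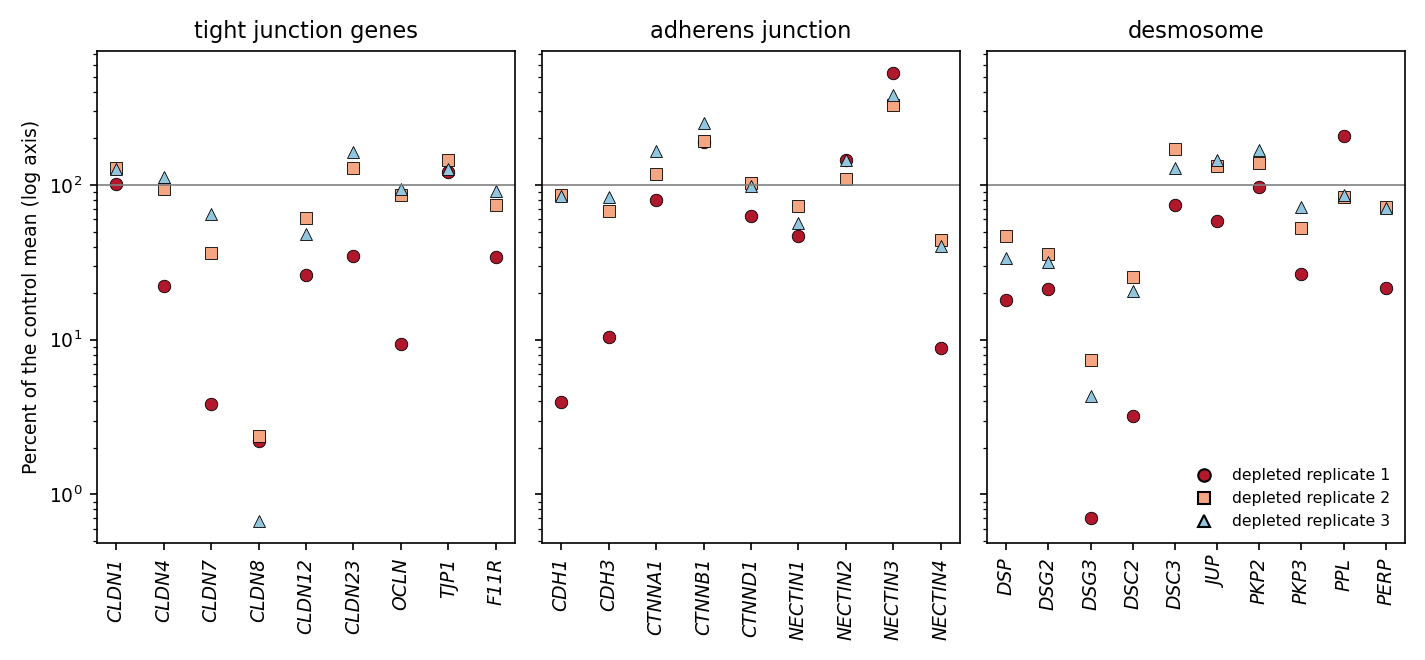
Level of each gene in the 3 depleted samples as a percentage of its control mean (log axis; the line marks 100%), for the 9 tight junction genes, 9 adherens junction genes and 10 desmosome genes. Depleted replicate 1 (dark circles) is the lowest symbol for 8 of 9 and for 16 of 19 genes, whereas all 3 samples of CLDN8 lie at or below 2.38%.

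RefSeq promoter windows of 300 bases (GRCh38.p14, from 250 before to 50 after a transcript start) were matched for 6 of the members, CLDN1, CLDN4, CLDN7, CLDN12, OCLN and TJP1, with 11 windows in all. Both strands were searched for 5 short motifs. The E-box CAGGTG, with its reverse complement, which repressors of epithelial genes such as SNAI1 and ZEB1 are known to bind, was found in 4 windows of CLDN7, OCLN and TJP1, against 20.6% of all 35116 windows. A CLDN7 window (chr17:7262429-7262728, minus strand) held 5 of them, and 5 or more were found in 0.094% of all windows. The RUNX motif TGTGGT, with its reverse complement, was found in OCLN alone, as the same site in 2 windows that overlap each other. Of all windows, 13.1% held this motif. TGANTCA, the AP-1 motif, was found in a CLDN4 window (7.71% of all windows), TGACGTCA, the cyclic AMP response element, in the same CLDN7 window (1.85%), and the grainyhead motif AACCGGTT in none of the 11 (0.134%). These matches are letters in a window and say nothing of binding.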

How the data were processed

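Total RNA was depleted of ribosomal RNA and made into stranded libraries, read as single-end reads of 100 bases. The authors trimmed reads with cutadapt and aligned them to hg38 with TopHat2. Reads per Gencode v22 gene were counted with HTSeq, and each sample's counts were divided by its DESeq2 size factor. The deposited values are thus a normalized signal per gene for each sample, from which whole reads were recovered for 100% of values (tolerance 0.1 read). The tool list in the labels gives DESeq2 1.8.1. The strand setting and the filter on low genes are not given in the sources used here.

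Groups came from the sample labels. limma 3.58.1 (lmFit, eBayes with a trend) was run on log2(normalized count + 1), for genes whose mean reached 10, and fold changes are on that scale. edgeR 4.0.16 and DESeq2 1.42.0 on the recovered reads were alternatives. The limma, edgeR and DESeq2 steps were tested on simulated data. Claudin shares, their summed level and log2 ratios within a sample were compared with exact permutation tests. Names and coordinates came from Gencode v44 (18913 of 19198 identifiers). Floors and intervals of counts cover counting error only, and 3 reads equal 1.76 to 6.71 normalized counts.

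The members and gene lists were chosen with earlier results of these data known. Every member was named. Of the other lists, called genes were named, and those with a difference of at least 1 on the log2 scale and separate groups. A few more were named after their values were seen. These were CDH1, NECTIN1, MARVELD2, MARVELD3, the angulins, the remaining claudins and the markers PECAM1 and CDH5. The luminal and basal markers, among them EPCAM, KRT5, KRT8, KRT18 and KRT19, were also named in this way. The values of 1 other component, counted in its list, are not reported here. For CLDN8 the 3 genes most alike by Pearson r were named. Fits used R 4.3.3. Tables were made with pandas 2.3.3 on Python 3.11.15, permutation tests with scipy 1.17.1 and numpy 2.4.6, and plots with matplotlib 3.10.9.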

Additional observations from a re-analysis of the deposited data

How the results depend on the processing

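The count of called tight junction genes was 1, CLDN8, under each alternative run, including pseudocounts of 0.5 and 10, other filters, equal totals, quantile normalization, edgeR, DESeq2, a correction for GC content and transcript length, and each sample left out. With the replicate number as a block, 1 of the 9 genes, 3 of the other components and 3 of the adherens junction and desmosome genes were called. Samples with the same number correlated at -0.0726, -0.283 and -0.323 in their deviations from the group means. No sign of pairing by number was seen, but 3 such correlations cannot exclude it. AMOTL2 and DSG2 lost their calls under the block, with adjusted p of 0.108 and 0.0813 by limma, and DSC2 gained one, with 0.0376. AMOTL2 was also not called by edgeR (adjusted p of 0.0522) or after the length and GC correction (adjusted p of 0.0911 by limma). Among the other components 4 were called, against 2 without the trend and 2 to 7 with a sample left out. Among adherens junction and desmosome genes 3 were called, against 6 by DESeq2, 6 after the length and GC correction, 5 at an adjusted p under 0.1, and 1 to 3 with a sample left out. Over the 13 settings that can move an estimate, 109 of 117 member fold changes kept their sign, 7 turned and 1 was 0, and 5 of the 9 genes kept their sign in all. The sign of CLDN23 was lost under quantile normalization (-0.09). With a sample left out the log2 fold changes ran from -0.17 to 0.79 for CLDN1, from -1.04 to 0.19 for CLDN4, from -0.53 to 0.75 for CLDN23 and from -1.54 to 0.30 for OCLN. The cause of these changes was not tested. Each group had 3 samples, and single outlying samples occurred in both groups. Changes of 2-fold in CLDN1, CLDN4, CLDN7, CLDN12, CLDN23, OCLN and F11R lie within the intervals. Depth limits the size of the fall of CLDN8, which rests on 2 reads in depleted replicate 3.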
